A study of Sus scrofa with 17 samples.

Results

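TLR2, SOCS5 and CCL16 are 3 of the 26560 genes counted in 17 perfused pig kidneys: a receptor for microbial and damage-derived patterns, an intracellular suppressor of cytokine signals and a chemokine. The 3 genes were chosen by their row in the count table, with the difference between G3 and G1 already known. The choice also paid attention to changes already present after a single injection. SOCS5 and TLR2 belong to the genes that the study's deposited comparison of G3 with G1 listed. CCL16 belongs to the study's printed table of top-regulated genes in G3 against G1, which holds neither SOCS5 nor TLR2. Their G3 against G1 values are therefore given as a description, without a test.

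All 17 kidneys came from female wild-type Dutch Landrace pigs aged 6 months to 1 year, with a single kidney from each animal. Each kidney went through 32 min of warm ischemia, 24 h of hypothermic machine perfusion (HMP, cold) and 5 h of normothermic machine perfusion (NMP, warm). G1 (5 kidneys) received PBS-1X in both perfusions. G2 (6 kidneys) received pUPC-EVs, extracellular vesicles released by porcine urine progenitor cells, during HMP only. G3 (6 kidneys) received pUPC-EVs during HMP and again during NMP. The kidneys were isolated organs whose NMP circuit held blood cells of the same pig, and the biopsies sequenced were taken at the end of NMP. An effect of the HMP injection was therefore read after NMP, not at the end of the cold phase.

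Toll-like receptor 2 sits on the surface of macrophages, neutrophils, endothelium and injured tubule cells, pairs with TLR1 or TLR6, and signals through MYD88 to NF-kB. CD14 hands ligands to it. SOCS proteins bind cytokine receptors or their JAK kinases through an SH2 domain and bring in an elongin and cullin 5 ubiquitin ligase through the SOCS box; SOCS5 is known for acting on EGF receptor and interleukin-4 receptor signals. CCL16 is a CC chemokine best known from liver that attracts monocytes and lymphocytes through CC chemokine receptors such as CCR1 and CCR8 and also binds the histamine receptor HRH4.

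In the RefSeq annotation of Sscrofa11.1, TLR2 (ENSSSCG00000009002) spans chr8:75416257-75428370, SOCS5 (ENSSSCG00000008437) chr3:93777402-93925859 and CCL16 (ENSSSCG00000040940) chr12:39618187-39621557. CCL16 lies between CCL14 (chr12:39611887-39616050) and CCL5 (chr12:39652731-39659121) in the CC chemokine cluster. The gene spans were matched by symbol. SOCS5 is also the member for which the study designed a qRT-PCR assay, and its primer pair is shown because it names the transcript that was probed. Both primers are 20 bases long and hold 55.0% G and C.
pSOCS5 forward: ctgtgtttgcagtctcggag
pSOCS5 reverse: gcttcgtaacggtccatcac

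Each library held between 19270046 and 24736473 counts (median 21504848) on 18813 to 21049 detected genes. Levels below are CPM, the counts of a gene relative to its library's total after scaling by edgeR's TMM factors, which ran from 0.825 to 1.10. The 7 proximal tubule markers summed to between 11033 and 21884 CPM per kidney, so the labelled tissue was found in every library. The 40 pairs of kidneys within a group differed by more than counting error, with a chi-square per degree of freedom of at least 21.4. The p-values below thus measure the spread between animals.

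After a single injection, TLR2 was higher by 1.66 times and SOCS5 by 1.34 times in G2 than in G1, while CCL16 showed no common direction among the G2 kidneys. Neither difference passed the adjusted threshold over all genes. With edgeR's quasi-likelihood test, 0 of the 3 genes had a Benjamini-Hochberg adjusted p under 0.05 in this comparison, as did 0% of the 25699 genes tested. DESeq2 called 1 gene and limma's voom called 0 of them, and neither called one of these 3. At an unadjusted p under 0.05, 2 of the 3 genes passed with edgeR, beside 3.51% of all genes, and with voom CCL16 passed too, as lower in G2 (unadjusted p = 0.0364, adjusted p = 0.909). TLR2 also met a fold over 1.5 with an unadjusted p under 0.05, as did 2.63% of all genes. SOCS5 had all G2 kidneys above all G1 kidneys, which held for 21 genes or 0.0817%. With library size only, chosen after the data were seen, 4 of its 6 G2 kidneys were above all G1 kidneys, and 7 genes separated fully. These tests use the same G1 kidneys as the comparison that the genes were chosen on, so low values in G1 favour both. Because the choice also paid attention to changes after a single injection, the p-values of G2 against G1 are not independent of it.

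**Figure D1:**
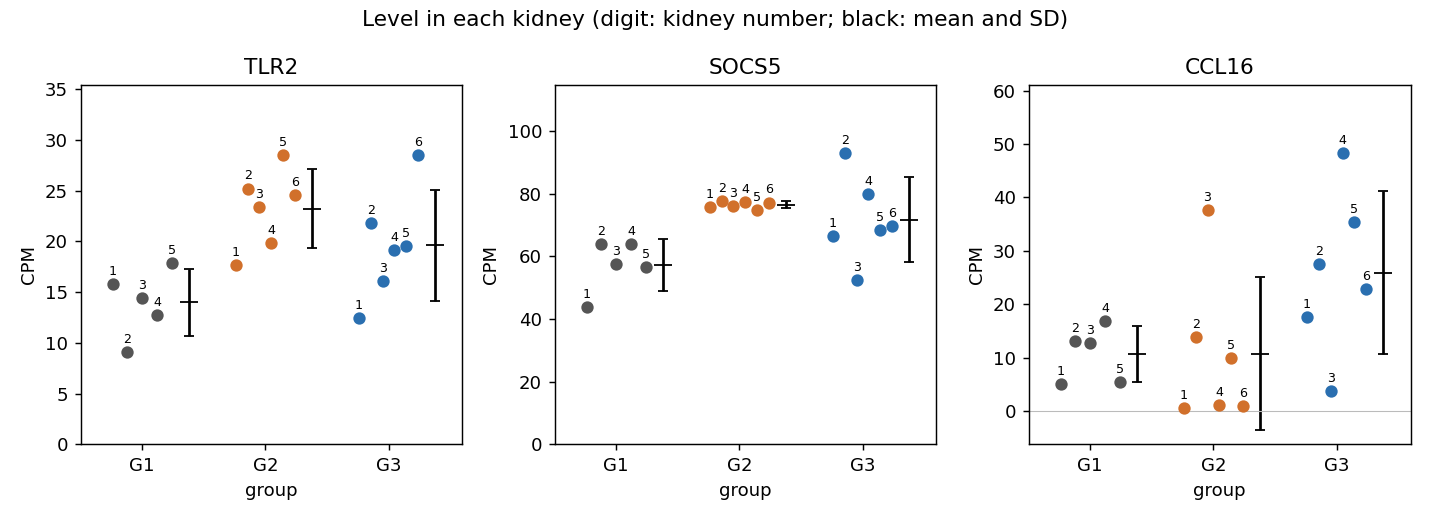
Level of TLR2, SOCS5 and CCL16 in CPM (vertical axis, a scale of its own in each panel) in each kidney of G1, G2 and G3, with the kidney number beside each point and the group mean and SD in black. The G2 kidneys lie between 74.7 and 77.7 CPM for SOCS5 and between 0.597 and 37.7 CPM for CCL16.

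TLR2, the pattern receptor, was at 15.8, 9.14, 14.4, 12.7 and 17.8 CPM in G1 kidneys 1 to 5. In G2 the lowest value was 17.7 CPM in kidney 1, the median 24.0 CPM and the highest 28.5 CPM in kidney 5. Only G2 kidney 1 lay inside the G1 range, just under G1 kidney 5, and the other 5 G2 kidneys were above all G1 kidneys. In G3 the lowest value was 12.4 CPM in kidney 1, the median 19.4 CPM and the highest 28.5 CPM in kidney 6. G3 kidneys 1 and 3 lay inside the G1 range and 4 of 6 above it. G1 averaged 14.0 ± 3.30 CPM (SD, n = 5), G2 averaged 23.2 ± 3.89 CPM (SD, n = 6) and G3 averaged 19.6 ± 5.46 CPM (SD, n = 6), with 200 to 639 counts behind each kidney's value.

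The log2 fold change of TLR2 between G2 and G1 was 0.73 (standard error 0.175, 95% interval 0.36 to 1.10). Its unadjusted p of 0.000639 was the 5th smallest of the 25699 genes tested, and its edgeR adjusted p was 0.840. The edgeR unadjusted p was 0.00393 with library size only and 0.00623 with runs of consecutive sample codes as a covariate. On log2 CPM the difference was 0.75 (exact permutation test, two-sided, p = 0.00866). Over the 9 other fits that kept all kidneys the log2 fold change ran from 0.62 to 0.73 and the adjusted p from 0.296 (DESeq2) to 1.00, and over the 11 fits that left out 1 kidney it ran from 0.61 to 0.83. G3 against G1 gave a log2 fold change of 0.47 (standard error 0.196), and 0.29 with the code series, runs of consecutive sample codes, as a covariate. Between G3 and G2 it was -0.24 (95% interval -0.61 to 0.13, edgeR adjusted p = 0.948, exact permutation test p = 0.184), and no G3 kidney was above all G2 kidneys. When 1 kidney was left out, the difference between G3 and G2 ran from -0.38 without G3 kidney 6 (edgeR unadjusted p = 0.0331, adjusted p = 0.873) to -0.13 without G3 kidney 1, so its size depended on single kidneys while its sign did not.

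The sample codes of the study fall into 3 runs of consecutive numbers, here called code series A, B and C, whose meaning is not stated. Within series A (2 kidneys of G2, 2 of G1) TLR2 was higher in G2 by 0.81 on the log2 CPM scale, and within series C (4 kidneys of G2, 1 of G1) by 0.42. Series B holds no G2 kidney. G3 minus G1 was 0.05 in series A, 0.69 in series B and 0.19 in series C, each with 1 kidney in G3 or in G1.

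SOCS5, the cytokine signal suppressor, was at 43.7, 64.1, 57.4, 63.8 and 56.6 CPM in G1 kidneys 1 to 5. In G2 the lowest value was 74.7 CPM, the median 76.6 CPM and the highest 77.7 CPM. With TMM factors, all 6 G2 kidneys were above all G1 kidneys, with no overlap, and lay within 1.04 times of each other. In G3 the lowest value was 52.6 CPM in kidney 3, the median 69.0 CPM and the highest 93.1 CPM in kidney 2. G3 kidney 3 fell inside the G1 range, and the other 5 were above all G1 kidneys. G1 averaged 57.1 ± 8.26 CPM (SD, n = 5), G2 averaged 76.5 ± 1.17 CPM (SD, n = 6) and G3 averaged 71.7 ± 13.7 CPM (SD, n = 6), with 1008 to 1942 counts behind each value.

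The log2 fold change of SOCS5 between G2 and G1 was 0.42 (standard error 0.119, 95% interval 0.17 to 0.67). Its unadjusted p of 0.00257 was the 25th smallest of the 25699 genes, and its edgeR adjusted p was 0.840. The edgeR unadjusted p was 0.0127 with library size only and 0.0100 with the code series as a covariate. With TMM factors the two-sided exact permutation test gave p = 0.00433 over 462 splits. The log2 fold change ran from 0.34 to 0.47 over the 9 other fits with all kidneys, with an adjusted p from 0.450 (DESeq2) to 1.00, and likewise from 0.34 to 0.47 when 1 kidney was left out. Marker lists of several cell types also lay higher in G2 than in G1, stroma in 5 of 5 genes with a median log2 fold change of 0.32, red cells in 4 of 4 (0.28), proximal tubule in 7 of 7 (0.15) and endothelium in 5 of 5 (0.14). Of these, 1 of 5 stroma genes had an unadjusted p under 0.05 in edgeR, or 20% beside 3.51% of all genes. The red cell, proximal tubule and endothelium lists held none, and no gene of these lists had an adjusted p under 0.05. The red cell markers were near the floor, with sums from 1.42 to 3.60 CPM in G1 and from 1.04 to 5.42 CPM in G2. Without G2 kidney 6, the log2 fold changes of HBB and AHSP were -0.049 and -1.54, while HBM and ALAS2 stayed positive whichever kidney was left out. Hepatocyte markers were higher in 4 of 5 (0.46), while lymphocyte markers were higher in 2 of 8 (-0.18) and distal nephron markers in 2 of 5 (-0.01). The summed stroma markers ran from 344.9 to 664.5 CPM in G1 and from 406.4 to 835.1 CPM in G2, and none was at 0. The part of these cell types in the SOCS5 difference was not tested. Between G3 and G1 the SOCS5 value was 0.32 on the log2 scale (standard error 0.141). Between G3 and G2 it was -0.09 (95% interval -0.35 to 0.18, edgeR adjusted p = 1.00, exact permutation test p = 0.368), with 2 G3 kidneys above all and 4 below all G2 kidneys. It ran from -0.18 without G3 kidney 2 to -0.01 without G3 kidney 3. Within code series A and C SOCS5 was higher in G2 than in G1 by 0.53 and 0.43 on the log2 CPM scale. The G3 kidneys exceeded those of G1 by 0.33, 0.62 and 0.24 within series A, B and C.

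The narrow spread of SOCS5 in G2 was not used to choose the gene. Its coefficient of variation over the 6 G2 kidneys was 1.53%, below the 2.47% that counting error alone gives at these counts. None of the 1943 genes whose mean in G2 was within 1.5 times of it had a smaller coefficient of variation, and their median was 16.99%. In G1 and G3 the coefficient of SOCS5 was 14.5% and 19.1%, and 55.9% and 71.4% of genes of like level had a smaller value. The spread depended on the scaling. With library size only, an alternative chosen after these values were seen, the G2 kidneys ran from 67.0 to 84.8 CPM with a coefficient of 9.77%, and 17.3% of genes of like level had a smaller one. On that scale G1 kidney 2, at 69.7 CPM, lay above G2 kidneys 3 and 6, so that 4 rather than 6 G2 kidneys were above all G1 kidneys. G2 kidneys 3 and 6 carry the lowest TMM factors of G2, 0.880 and 0.872. With RLE size factors the coefficient was 1.35% and all 6 kidneys stayed above G1.

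**Figure D2:**
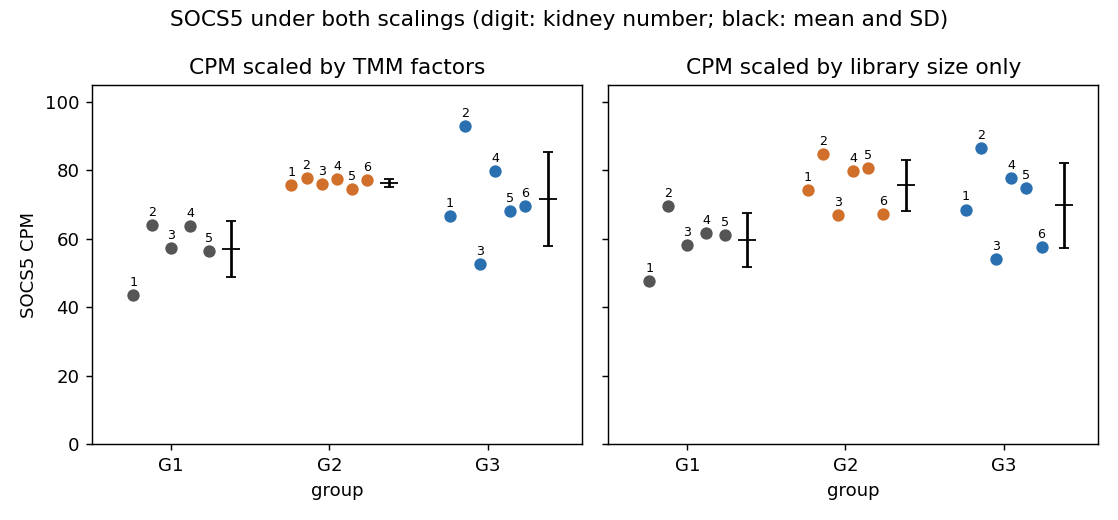
SOCS5 level in CPM (vertical axis) in each kidney by group, scaled by TMM factors on the left and by library size only on the right, with kidney numbers and the group mean and SD. The G2 kidneys run from 74.7 to 77.7 CPM on the left and from 67.0 to 84.8 CPM on the right, where G1 kidney 2 reaches above G2 kidneys 3 and 6.

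CCL16, the chemokine, was at 5.03, 13.2, 12.7, 16.9 and 5.43 CPM in G1 kidneys 1 to 5. In G2 the lowest value was 0.597 CPM in kidney 1, the median 5.59 CPM and the highest 37.7 CPM in kidney 3. G2 kidneys 1, 4 and 6, with 13, 26 and 17 counts, were below all G1 kidneys, and kidney 3, with 742 counts, was above all of them. In G3 the lowest value was 3.73 CPM in kidney 3, the median 25.2 CPM and the highest 48.3 CPM in kidney 4. G3 kidney 3, with 95 counts, was below all G1 kidneys, and the other 5 were above all of them. The highest kidney exceeded the lowest by 3.37 times in G1, 63.3 times in G2 and 12.9 times in G3.

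For CCL16, G1 averaged 10.7 ± 5.22 CPM (SD, n = 5), G2 averaged 10.7 ± 14.4 CPM (SD, n = 6) and G3 averaged 25.9 ± 15.3 CPM (SD, n = 6). Between G2 and G1 the log2 fold change was 0.01 (95% interval -1.59 to 1.62, edgeR adjusted p = 0.999). On log2 CPM, where the low kidneys weigh more, the difference of the means was -1.23 (two-sided exact permutation test, p = 0.290), so the sign of the difference rested on the scale. Without G2 kidney 3 the log2 fold change was -0.996, and voom, which weights the kidneys, gave -1.78. G3 against G1 gave a log2 fold change of 1.28 (standard error 0.449). When 1 kidney was left out, it ran from 0.997 without G3 kidney 4 to 1.51 without G3 kidney 3. Between G3 and G2 the log2 fold change was 1.28 (95% interval -0.30 to 2.87, edgeR adjusted p = 0.948), and the log2 CPM means differed by 2.32 (two-sided exact permutation test over 924 splits, p = 0.0714). The log2 fold change was 2.91 with voom, 2.52 with a replicate block and 2.28 without G2 kidney 3, with unadjusted p of 0.00610, 0.00519 and 0.00499 and adjusted p from 0.965 to 1.00. Within code series A and C G2 was lower than G1 by 1.41 and 0.23 on the log2 CPM scale, written -1.41 and -0.23 as G2 minus G1. G3 exceeded G1 by 1.10, 0.90 and 1.83 within series A, B and C.

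In the comparison of G3 with G2, which shares the G3 kidneys with the comparison that chose the genes, 0 of the 3 genes had an adjusted p under 0.05 with edgeR, beside 0% of 25701 genes, and 0 of the 3 had an unadjusted p under 0.05, beside 3.13%. The second count became 1 with voom, with a replicate block, without G2 kidney 3 (CCL16 in each) and without G3 kidney 6 (TLR2). DESeq2 called 3 genes and voom 0 there, none of them TLR2, SOCS5 or CCL16. In the comparison of G3 with G1, an adjusted p under 0.05 was reached by 0.00778% of 25719 genes and an unadjusted one by 4.73%.

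**Figure D3:**
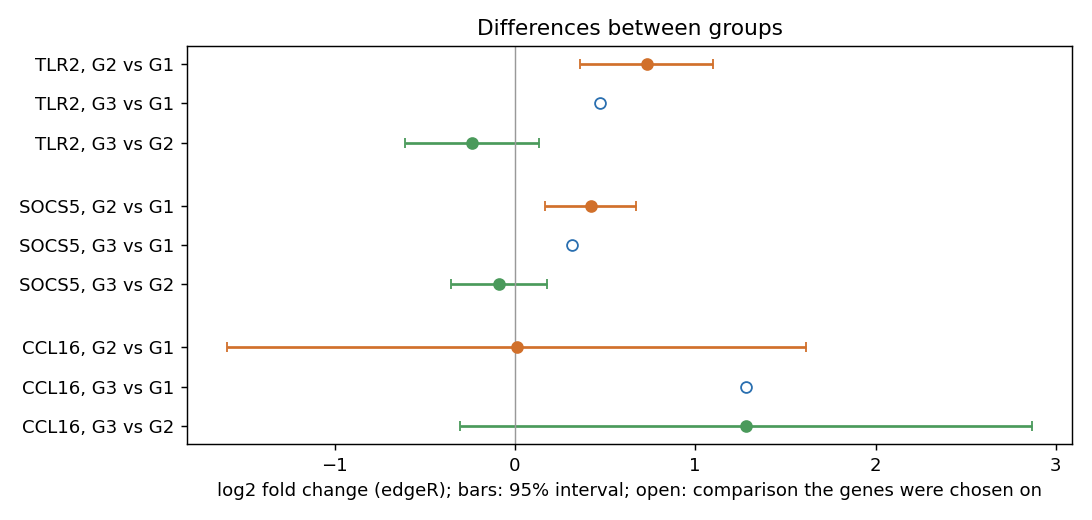
Log2 fold change of each gene in each comparison from edgeR (horizontal axis), with 95% intervals; open circles without a bar mark G3 against G1, on which the genes were chosen. The G2 against G1 intervals of TLR2 (0.36 to 1.10) and SOCS5 (0.17 to 0.67) lie above 0 and that of CCL16 (-1.59 to 1.62) spans it.

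The neighbours of CCL16 in the chemokine cluster were counted in the same kidneys. CCL14, a plasma chemokine, was between 0.616 and 2.19 CPM over all kidneys and differed by 0.14 between G2 and G1 (edgeR adjusted p = 0.965). This difference ran from -0.0011 without G2 kidney 6 to 0.39 without G1 kidney 3. In the G2 kidneys with little CCL16, kidneys 1, 4 and 6, CCL14 was at 0.872, 2.08 and 2.17 CPM. CCL5, a chemokine of activated lymphocytes, was at 29.5, 40.4 and 73.3 CPM in those kidneys and at 56.9 CPM in G2 kidney 3. G2 kidney 1 was the lowest of G2 in both neighbours, whereas kidneys 4 and 6 had the most CCL14 of G2 and kidney 6 the most CCL5. No test was made of these contrasts between genes.

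Pathway genes were counted from lists of TLR2's, SOCS5's and CCL16's partners, relatives and targets, 130 genes of which 116 could be named and tested. Between G2 and G1 edgeR gave an adjusted p under 0.05 to 0 of 116, and DESeq2 and voom to 0 as well. An unadjusted p under 0.05 was found for 5, all higher in G2, or 4.31% beside 3.51% of all genes. The median log2 fold change of the 116 was 0.04, and that of all genes tested was -0.01. Between G3 and G1, 0 of 116 passed with edgeR, DESeq2 or voom, and 5 were higher and 2 lower at an unadjusted p under 0.05, or 6.03% beside 4.73%. When 1 kidney was left out, the count at an unadjusted p under 0.05 ran from 3 to 6 between G2 and G1 and from 7 to 12 between G3 and G1. Between G3 and G2, 0 passed with the same tools, and 4 were higher and 1 lower, or 4.31% beside 3.13%.

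**Figure D4:**
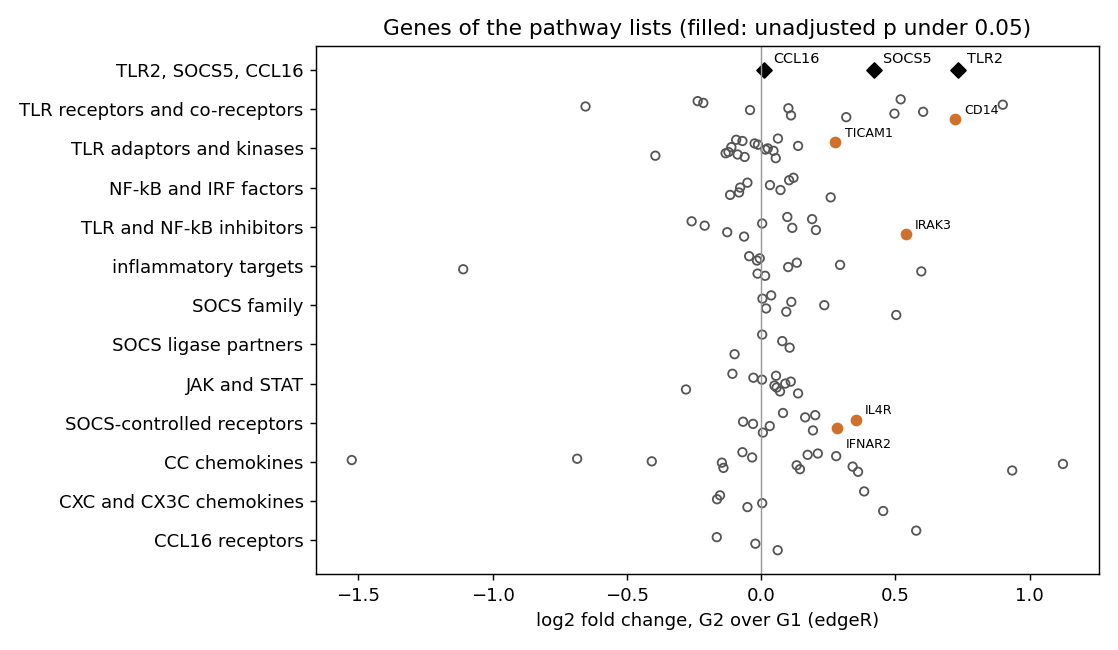
Log2 fold change of G2 over G1 from edgeR (horizontal axis) for the 116 list genes, 1 line per list, with TLR2, SOCS5 and CCL16 as diamonds on top. Filled points mark the 5 genes with an unadjusted p under 0.05, all to the right of 0, with CD14 the furthest at 0.72.

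Among the 12 receptors and co-receptors of TLR2's family tested, CD14, the ligand-presenting co-receptor, had the smallest p between G2 and G1. CD14 was at 8.80, 6.31, 9.14, 6.42 and 8.56 CPM in G1 kidneys 1 to 5. In G2 it ran from 10.1 CPM over a median of 12.6 CPM to 16.5 CPM, above all G1 kidneys in 6 of 6. Its log2 fold change was 0.72 (standard error 0.178, unadjusted p = 0.000826, edgeR adjusted p = 0.840), close in size to that of TLR2. In G3 it ran from 6.96 to 15.5 CPM, with a log2 fold change of 0.32 against G1 (edgeR adjusted p = 0.813) and 0.17 without G3 kidney 6. The dimer partners TLR1 and TLR6 had log2 fold changes of 0.50 and 0.90 between G2 and G1 (edgeR adjusted p = 0.840 for both), and TLR4, the lipopolysaccharide receptor and the most abundant of the list, 0.10 (adjusted p = 0.957). Without G2 kidney 5 the values of TLR1 and TLR6 were 0.29 and 0.41. TLR4 ran from -0.08 without G2 kidney 6 to 0.23 without G1 kidney 5. The median of the list was 0.21, with 8 of 12 genes higher in G2. With G3 against G1 the list was led by TLR8, a receptor for single-stranded RNA, which at a mean of 0.387 CPM in G3 and 0.768 CPM in G1 had a log2 fold change of -0.98 (edgeR adjusted p = 0.813).

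Further along the TLR pathway, the adaptor TICAM1 and the inhibitor IRAK3 had unadjusted p under 0.05 between G2 and G1, with log2 fold changes of 0.28 and 0.54 (edgeR adjusted p = 0.840 for both). The remaining 16 of 17 adaptors and kinases had larger p, and the list's median was -0.02. Of 9 NF-kB and IRF factors, 0 had an unadjusted p under 0.05 in edgeR, and RELB had the smallest p with a log2 fold change of 0.12 (adjusted p = 0.869), or 0.07 without G1 kidney 5. Of 10 inflammatory targets, also 0 did, and IL10, an anti-inflammatory cytokine, had the smallest p in both comparisons with G1, with log2 fold changes of 0.60 in G2 and 0.48 in G3 (edgeR adjusted p = 0.840 and 0.813). The first was 0.23 without G2 kidney 6. Against G1, the smallest p values of G3 in the other 3 lists belonged to TIRAP, an adaptor of TLR2, at 0.22, to IRF7, an interferon regulatory factor, at 0.58 and to TNIP1, an NF-kB inhibitor, at 0.28 (edgeR adjusted p = 0.813 for each).

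Among the relatives of SOCS5, the 7 other SOCS genes had log2 fold changes between G2 and G1 from 0.00 (SOCS6) to 0.50 (CISH), and 0 had an unadjusted p under 0.05 in edgeR. CISH had the smallest p (adjusted p = 0.840) and a value of 0.12 without G2 kidney 6, and SOCS3, the most abundant at a mean of 398.9 CPM in G1 and 469.6 CPM in G2, had 0.24 (adjusted p = 0.840), or 0.12 without G1 kidney 2. Their median was 0.09, against 0.42 for SOCS5. The ligase subunits that the SOCS box recruits ran close to 0, with CUL5 at -0.10 (adjusted p = 0.918). Of the 10 cytokine and growth factor receptors under SOCS control, IL4R and IFNAR2 had unadjusted p under 0.05 between G2 and G1, with log2 fold changes of 0.35 and 0.28 (edgeR adjusted p = 0.840 for both). IFNAR2, a chain of the type I interferon receptor, also led this list in G3 against G1 (0.37, adjusted p = 0.676). Of 11 JAK and STAT genes JAK1 had the smallest p between G2 and G1 (0.14, adjusted p = 0.843) and STAT2, a mediator of interferon signals, between G3 and G1 (0.47, adjusted p = 0.813). The value of JAK1 was 0.08 without G1 kidney 1.

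Of 16 CC chemokines other than CCL16, 0 had an unadjusted p under 0.05 between G2 and G1 in edgeR, 9 of 16 were higher in G2 and the median was 0.14. CCL26, at a mean of 0.121 CPM in G2 and 0.363 CPM in G1, had the smallest p (log2 fold change -1.53, adjusted p = 0.840), and its value was -0.25 without G1 kidney 3. In G3 against G1 CCL22, a chemokine for regulatory T cells, had -0.62 (edgeR adjusted p = 0.813). The interferon-induced CXCL10 and CXCL11 had 1.16 and 1.67 between G3 and G1 (adjusted p = 0.813 for both) and 0.45 and -0.05 between G2 and G1. Without G3 kidney 3 both stood at 0.77 between G3 and G1, and without G2 kidney 3 CXCL10 stood at 0.06 between G2 and G1. In G3 CXCL11 had a median of 9.97 CPM and a single kidney at 54.3 CPM, and in G1 it ran from 2.01 to 8.17 CPM. CXCL10 had a median of 71.7 CPM and a maximum of 211.7 CPM in G3, and ran from 21.1 to 69.8 CPM in G1. Of the receptors that bind CCL16, CCR1, CCR8 and HRH4 had means from 0.289 to 4.15 CPM in G1 and G2. Between G2 and G1 HRH4 had the smallest p, with a log2 fold change of 0.58 (edgeR adjusted p = 0.843), from 0.37 without G1 kidney 4 to 1.00 without G1 kidney 2.

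The genes whose pattern over the 17 kidneys was most like that of TLR2 were LCP1, an actin-bundling protein of leukocytes, MMP14, a membrane-bound matrix protease, and CD14. Pearson's r of log2 CPM was 0.88, 0.83 and 0.83, and 0.80, 0.70 and 0.70 after the group means were removed. They were picked as the highest of 11807 genes with a symbol and a mean of at least 1 CPM, so these are descriptions without a test. LCP1 ran from 30.3 to 44.6 CPM in G1, from 50.4 to 64.2 CPM in G2 and from 38.7 to 75.4 CPM in G3. The highest G3 kidney for TLR2, kidney 6, was also the highest for LCP1 and CD14, and the lowest kidney of all for TLR2, G1 kidney 2, was the lowest for both.

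**Figure D5:**
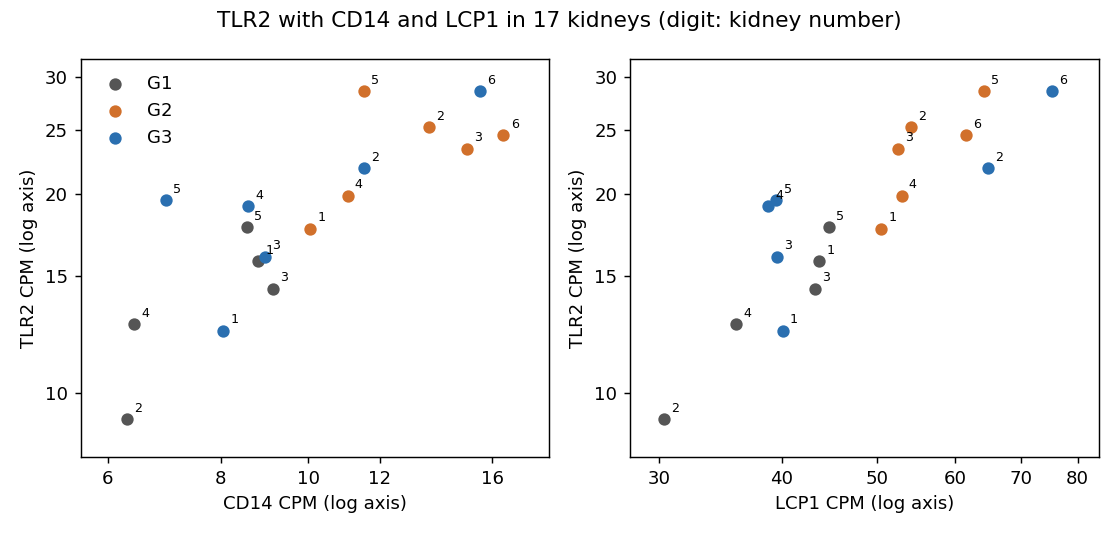
TLR2 level against that of CD14 (left) and LCP1 (right) in CPM on log axes, 1 point per kidney with its number, coloured by group. G1 kidney 2, at 9.14 CPM of TLR2, is lowest on all axes, and the G2 kidneys, from 17.7 to 28.5 CPM of TLR2, lie at 10.1 CPM or more of CD14 and 50.4 CPM or more of LCP1.

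Because TLR2, CD14 and LCP1 are expressed by myeloid cells, the myeloid markers are given beside them. In bulk tissue, more cells of a type and more RNA per cell cannot be told apart. Summed over the 12 of 13 markers that were tested, they ran from 141.6 to 218.7 CPM in G1, from 159.5 to 241.1 CPM in G2 and from 166.3 to 212.9 CPM in G3, and the ranges overlapped. Their median log2 fold change between G2 and G1 was 0.40, with 8 of 12 higher, and the complement genes C1QA and C1QB had unadjusted p under 0.05 (0.54 and 0.46, edgeR adjusted p = 0.840 for both). These were 2 of 12 markers or 16.7%, beside 3.51% of all genes. CD68, a lysosomal marker of macrophages, had -0.01 (edgeR adjusted p = 0.995) and PTPRC, the leukocyte common antigen, 0.08 (adjusted p = 0.978). When 1 kidney was left out, CD68 ran from -0.22 to 0.09 and PTPRC from -0.08 to 0.31. None of the markers was at 0 in a group. Within groups, TLR2 and the mean log2 CPM of the myeloid markers had r = 0.27 (rho 0.38, permutation p = 0.337 and 0.164, adjusted p = 0.628 and 0.542 over 18 relations) and r = 0.30 without the 2 kidneys furthest from the median of TLR2. The part of myeloid cells in the TLR2 difference was not tested beyond this.

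The genes most like SOCS5 were EDNRA, the endothelin A receptor of vascular muscle and mesangium (r = 0.82), SH3BP5, a binding partner of JNK kinase (0.81), and AGMO, an ether lipid hydrolase (0.80), with 0.82, 0.66 and 0.73 within groups. EDNRA ran from 11.3 to 18.6 CPM in G1, from 14.9 to 29.8 CPM in G2 and from 13.0 to 37.7 CPM in G3. Like SOCS5, it was lowest in G1 kidney 1 and highest in G3 kidney 2, but its G2 kidneys spread widely and overlapped with G1.

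The genes most like CCL16 were SLC12A5, a potassium chloride cotransporter (r = 0.78), PTPRQ, a receptor-type phosphatase (0.78), and GJC3, a gap junction connexin (0.78), with 0.79, 0.80 and 0.77 within groups. PTPRQ was at 4.18, 8.94 and 8.29 CPM in G2 kidneys 1, 4 and 6 and at 8.88 CPM in G3 kidney 3, the kidneys with the least CCL16 in their group, and from 18.0 to 43.2 CPM in G1. SLC12A5 was at 9.36 CPM in G2 kidney 3, its highest value of all kidneys, where CCL16 was highest in G2. Hepatocyte markers, given because CCL16 is best known from liver, summed to 36.2, 89.7 and 67.4 CPM in G2 kidneys 1, 4 and 6 and to 80.2 CPM in G2 kidney 3. Over all kidneys they ran from 29.6 to 89.7 CPM, mostly APOA1 and TTR. ALB, the defining marker, was at a mean of 0.747 CPM in G1 and 1.10 CPM in G2, and 1 of the 5 markers, SERPINA1, was at 0 in all G3 kidneys.

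Among themselves, 0 of the 3 pairs of genes had a within-group correlation with an adjusted p under 0.05, and SOCS5 with CCL16 had an unadjusted one under it. After removal of group means, TLR2 and SOCS5 had r = 0.02 (rho -0.04, permutation p = 0.951 and 0.889, adjusted p = 0.995 and 0.942), and r = 0.11 without the 2 kidneys furthest from the median of TLR2. TLR2 and CCL16 had r = 0.24 (rho 0.18, permutation p = 0.302 and 0.474, adjusted p = 0.628 and 0.656), and r = 0.36 without those 2 kidneys. SOCS5 and CCL16 had r = 0.40 (rho 0.37, permutation p = 0.0168 and 0.0809, adjusted p = 0.151 and 0.542). Without G3 kidneys 2 and 3, the furthest from the median of SOCS5, r was 0.25. It was 0.20 without kidney 3 alone and 0.44 without kidney 2 alone, so the fall came with kidney 3. Within G3 alone r was 0.79 and within G2 -0.17, where the spread of SOCS5 was below counting error. Centred within group and code series, the 3 correlations were -0.19, 0.32 and 0.43.

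G3 kidney 3 was the lowest of G3 in both SOCS5 and CCL16. It also had the lowest summed endothelial markers of G3, 562.5 CPM where the other 5 ran from 888.0 to 1013 CPM, and the lowest summed stroma markers, 282.6 CPM. SOCS5 and the endothelial markers had r = 0.49 within groups (rho 0.47, permutation p = 0.00544 and 0.0308, adjusted p = 0.0979 and 0.542). Without G3 kidneys 2 and 3, r was 0.21, and it was 0.24 without kidney 3 alone and 0.46 without kidney 2 alone, so the pooled value rested on kidney 3. Within G2 alone r was 0.62 and within G3 0.81. Centred within group and code series r was 0.59 (permutation test, adjusted p = 0.0106), with G3 kidney 3 kept. G1 in series C and G3 in series A and in series B hold 1 kidney each, whose deviation this centring sets to 0. Endothelial markers ran from 689.9 to 790.8 CPM in G1 and from 550.4 to 1107 CPM in G2. With TMM factors SOCS5 was nearly constant in G2, at a coefficient of variation of 1.53%, but not with library size only (9.77%). Because 1.53% lies below the 2.47% of counting error, no conclusion is drawn from the r values of SOCS5 within G2. SOCS5 and the stroma markers had r = 0.51 within groups (rho 0.33, permutation p = 0.0636 and 0.246, adjusted p = 0.381 and 0.542), with 0.88 within G3, -0.29 within G2 and 0.14 without G3 kidneys 2 and 3. SOCS5 and the lymphocyte markers had r = -0.35 within groups (permutation test, adjusted p = 0.628), and -0.79 without G3 kidneys 2 and 3. With the myeloid markers r was -0.18 (permutation test, adjusted p = 0.732), and -0.55 without those kidneys. With the proximal tubule markers r was 0.34 (permutation test, adjusted p = 0.487), and 0.49 without those kidneys. The values without those kidneys were not tested. Of the 15 relations between the 3 genes and marker scores, 0 had an adjusted p under 0.05 and 1 had an unadjusted p under 0.05.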

How the data were processed

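RNA of biopsies from 17 kidneys, with integrity numbers above 8.1, was sequenced after preparation with a stranded poly(A) kit. The authors trimmed reads with cutadapt 4.0, aligned them with STAR to Sscrofa11.1 and deposited the raw, unnormalized counts of each gene in each kidney. The counting program and its strand setting are not given in the sources used here, so reads of overlapping antisense genes may be shared. The authors' own DESeq2 comparison of G3 with G1 was deposited too, as fold changes and p-values, and was not used. Symbols were known for 15093 of 26560 identifiers.

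Groups were compared in pairs with edgeR 4.0.16 (R 4.3.3), quasi-likelihood test, TMM factors, all genes with 1 or more counts among those kidneys and Benjamini-Hochberg adjustment over all of them. Log2 CPM used a prior count of 2. Relations within groups were tested with 100000 permutations of kidneys within groups (two-sided, seed 1, 18 relations), with scipy 1.17.1, numpy 2.4.6 and pandas 2.3.3. Figures used matplotlib 3.10.9. Alternatives were DESeq2 1.42.0, limma 3.58.1 voom, other scalings and filters, a replicate block, a term for the code series and fits without single kidneys, which were extended to the list genes after the data were seen. The steps were tested on simulated data. The members and lists were chosen with earlier results of these data known.

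Genes were named by rule: the 3 members, the list gene with the smallest p against G1, list genes past the adjusted threshold, and the 3 genes with the highest r for each member. One gene that this rule names is not reported here. Other list genes and the neighbours of CCL16 were named after their values were seen.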

Additional observations from a re-analysis of the deposited data

Results flagged for a closer look

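Dixon's test for a kidney that stands apart from its group was run on 45 groups of values (the 3 genes, depth, genes detected and summed markers). The test found 4, where chance alone gives 2.25. CCL16 in G2 kidney 3 was at 37.7 CPM, where the other G2 kidneys ran from 0.597 to 13.9 CPM. Summed endothelial markers in G3 kidney 3 were at 562.5 CPM, where the other G3 kidneys ran from 888.0 to 1013 CPM. Summed distal nephron markers in G3 kidney 6 were at 7491 CPM, beside 2338 to 4124 CPM in the others. Summed lymphocyte markers in G2 kidney 4 were at 34.1 CPM, beside 21.3 to 24.1 CPM in the others. SOCS5 and TLR2 held no such kidney in any group.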

How the results depend on the processing

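TLR2 and SOCS5 kept their direction between G2 and G1 in all 9 other fits with all kidneys and all 11 fits that left out 1 kidney, and their adjusted p stayed above 0.05 in each. At 13 to 26 counts, CCL16 in 3 G2 kidneys rests on few reads. Kidneys of a group number 5 or 6, which sets the precision. The cause of the changes below was not tested.

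The number of genes called was 0 between G2 and G1, and became 1 with DESeq2 and 2 with the code series as a covariate. Between G3 and G1 it was 2, and became 31 with DESeq2, 1 with voom, 1 under each stricter count filter (edgeR's expression filter, or 10 counts in every kidney), 0 when the fit held all 3 groups (1115 at an unadjusted p under 0.05), and 11 with the code series. Leaving out 1 kidney gave from 0 to 9, with 957 to 1458 at an unadjusted p under 0.05; it gave 0 without G1 kidneys 1 or 3 or G3 kidneys 2 or 5, 1 without G3 kidneys 1 or 4, 4 without G1 kidney 4 and 9 without G1 kidney 5. Between G3 and G2 it was 0, and became 3 with DESeq2, and from 0 to 5 when 1 kidney was left out, with 5 without G2 kidney 2.

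CCL16 between G2 and G1, at 0.01, changed sign with voom (-1.78), library size only (-0.091), edgeR's expression filter (-0.0032) and at least 10 counts in every kidney (-0.0069), and ran from -0.996 to 0.26 when 1 kidney was left out, lowest without G2 kidney 3. Its difference between G3 and G2 ran from 1.01 to 2.28 when 1 kidney was left out, highest without G2 kidney 3, and was 2.91 with voom and 2.52 with a replicate block.

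A replicate block gave 0 genes between G2 and G1, 9 between G3 and G1 and 7 between G3 and G2. It put TLR2 at 0.73, SOCS5 at 0.43 and CCL16 at -0.57 between G2 and G1. Same-numbered kidneys came from separate animals and their deviations correlated from -0.26 to 0.44, so the numbers do not pair them, and not every kidney correlated best with its own number.

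TLR2 with SOCS5 within groups changed sign with library size only (-0.037) and centred within code series (-0.19), and ran from -0.13 to 0.18 when 1 kidney was left out. Uncalled marker correlations that changed sign were, with library size only, TLR2 with proximal tubule (-0.11), SOCS5 with myeloid cells (0.066) and CCL16 with endothelium (0.0099), and, centred within code series, TLR2 with proximal tubule (-0.27), CCL16 with endothelium (0.037) and CCL16 with stroma (-0.053). When 1 kidney was left out, these ran from -0.10 to 0.25 for TLR2 with proximal tubule, -0.30 to 0.20 for CCL16 with endothelium, -0.15 to 0.35 for CCL16 with proximal tubule and -0.096 to 0.28 for CCL16 with stroma. SOCS5 with endothelium passed the adjusted threshold when centred within code series (r = 0.59) and without G3 kidney 1 (r = 0.54, permutation test, adjusted p = 0.018). Both settings kept G3 kidney 3, on which the pooled r rested. With library size only, chosen after the data were seen, 7 rather than 21 genes had all G2 kidneys above all G1 kidneys.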
